A study of Mus musculus with 3 samples.

Results

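Proteasome subunits, their activators and their assembly factors were followed across 3 mouse pluripotent cell populations. The members were all probes with a single platform gene symbol that starts with Psma, Psmb, Psmc, Psmd, Psme, Psmf or Psmg. This gave 67 probes of 45 genes, out of 25697 probes and 16593 named genes on the array. By role they were 7 core α subunits, 7 constitutive core β subunits, 3 immunoproteasome β subunits, 6 base ATPases, 3 base non-ATPases, 7 lid subunits, 4 activators and 6 assembly factors. The other 2, Psmc3ip and Psme3ip1, matched the symbol rule without being subunits. Psmd3, Psmf1, Psmg4, Psmb11 and Psma8 were not analysed here.

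The study profiled RNA of each population on 1 Illumina bead array, so each group has n = 1. The E3R cells came from the E3 line, which has a hybrid background, after reversion. They were grown on gelatin in KSR medium with 1 µM PD0325901 (an inhibitor of the kinase MEK), 3 µM CHIR99021 (an inhibitor of the kinase GSK3) and 1000 U LIF, and were harvested on the dish. The E3 epiblast stem cells were grown on inactivated CF1 mouse embryonic fibroblasts in KSR medium with 5 ng/ml FGF2 and lifted with collagenase IV, so RNA of remaining fibroblasts can be part of that array. The CGR8 embryonic stem cells, an established line of other origin, had the same substrate, medium and harvest as the E3R cells. E3R and E3 therefore differ in state, medium, substrate and harvest together, E3R and CGR8 differ in line and history, and E3 and CGR8 differ in all of these, and the parts cannot be told apart. With a single array per group there is no replicate check, no p-value is given, and each of the 3 comparisons shares an array with the other two.

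The proteasome degrades proteins tagged with ubiquitin. Its core is a stack of rings, in which α subunits form the gate and β subunits hold the cutting sites. The regulatory particle consists of a base, whose ATPases unfold the substrate, and a lid, which removes the ubiquitin chain. In the immunoproteasome the constitutive catalytic β subunits are exchanged for Psmb8, Psmb9 and Psmb10, which are induced by interferon-γ together with Psme1 and Psme2, the α and β chains of the activator PA28, and which shape the peptides shown on MHC class I. In human embryonic stem cells, high proteasome activity has been linked to the lid subunit PSMD11.

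The arrays detected 9994 probes (38.9%) in E3R, 10791 (42.0%) in E3 and 9860 (38.4%) in CGR8 at a detection p under 0.01, the chance of so bright a signal among the array's negative control beads as the authors' file gives it. Markers fitted the labels. All 6 shared pluripotency markers were detected on every array. Of the 7 naive markers on the array, 6, 4 and 6 were detected in E3R, E3 and CGR8, with summed normalized signals of 8704, 284 and 8627. The 6 primed markers gave the reverse picture, with sums of 2536, 17550 and 2337 and 4, 6 and 4 of them detected.

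Signal above background was found for 41 of the 45 proteasome genes on some array, and for 38 on all 3. Each gene is represented by its brightest probe, and its level is the background-corrected, quantile-normalized log2 signal. Levels are set against each other only for the same probe. The α subunits Psma1 and Psma6, the ATPase Psmc6 and the immunoproteasome subunit Psmb8 were not detected on any array, which bounds the signal of those probes only. Psmb8 came nearest, with a detection p of 0.0965 in E3R and 0.214 in CGR8, and one just above the limit in E3. Among the 38 members detected throughout, the highest of the 3 signals was on the E3R array for 5 (13.2%), on the E3 array for 22 (57.9%) and on the CGR8 array for 11 (28.9%). Over the 6105 genes detected throughout, the shares were 28.0%, 42.5% and 29.6%.

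**Figure D1:**
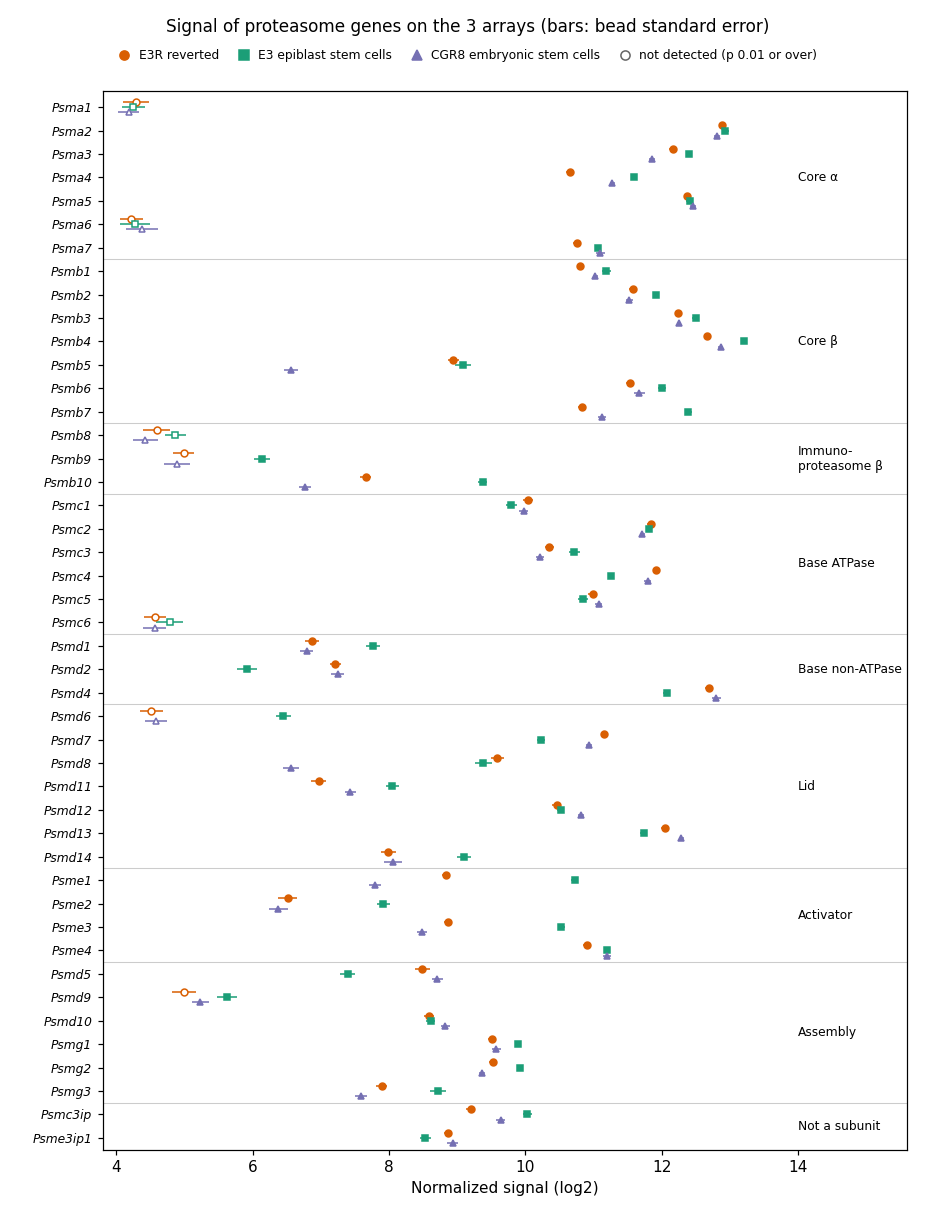
Normalized log2 signal (horizontal axis) of the brightest probe of each proteasome gene (rows, grouped by role) on the E3R, E3 and CGR8 arrays; open symbols are not detected, and only points of the same row are comparable. Most core rows hold points close together, while Psmb5 (8.94, 9.09 and 6.56) and Psmd8 (9.59, 9.38 and 6.56) have the CGR8 point far to the left.

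Differences are log2 values, the first-named population minus the second, and a gene counts as higher or lower when it passes 2-fold. Where only 1 of the 2 arrays detected the probe, the difference is a bound, set against the lowest detected signal of the other array, and is written as at least. In E3R against E3, 41 members had a value. Of these, 2 were higher, against 12.7% of the 7726 genes with a value, and 9 were lower (22.0% of the 41), against 12.4% of all genes. These 11 compare with 25.1% of all genes past 2-fold either way, and the remaining 30 lay within it. The median member difference was −0.33, with an interquartile range of −0.89 to 0.03, beside −0.02 and −0.57 to 0.56 over all genes. Without background correction Psmb9, Psmd2, Psmd5, Psmd6, Psmd11, Psmd14 and Psme2 came short of 2-fold. The shares of all genes were then 7.16% higher and 6.08% lower. Scaling the arrays to a common median instead of quantiles gave 1 member higher and 13 lower. Of all genes, 9.43% were then higher and 16.9% lower, with a median of −0.20.

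In E3R against CGR8, which shared their medium, 39 members had a value, 3 were higher and none was lower by the 2-fold limit, with no test behind either count. Over all 7286 genes 1.81% were higher and 1.54% lower, 3.35% either way. The member median was −0.06 and the interquartile range −0.22 to 0.14, close to the 0.01 and −0.24 to 0.24 of all genes. Of the 3, Psme1 came short of 2-fold without background correction (0.86), with an offset of 50 (0.94) and with scaling to a common median (0.85). In E3 against CGR8, 11 of 41 members were higher, against 13.9% of 7698 genes, and 2 were lower, against 13.4%. Together these 13 compare with 27.3% of all genes either way. Without background correction Psmb9, Psmd2, Psmd6, Psmd14 and Psmg3 came short of 2-fold. The shares of all genes were then 6.99% higher and 7.43% lower. The median was 0.33 there, against 0.01 over all genes.

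**Figure D2:**
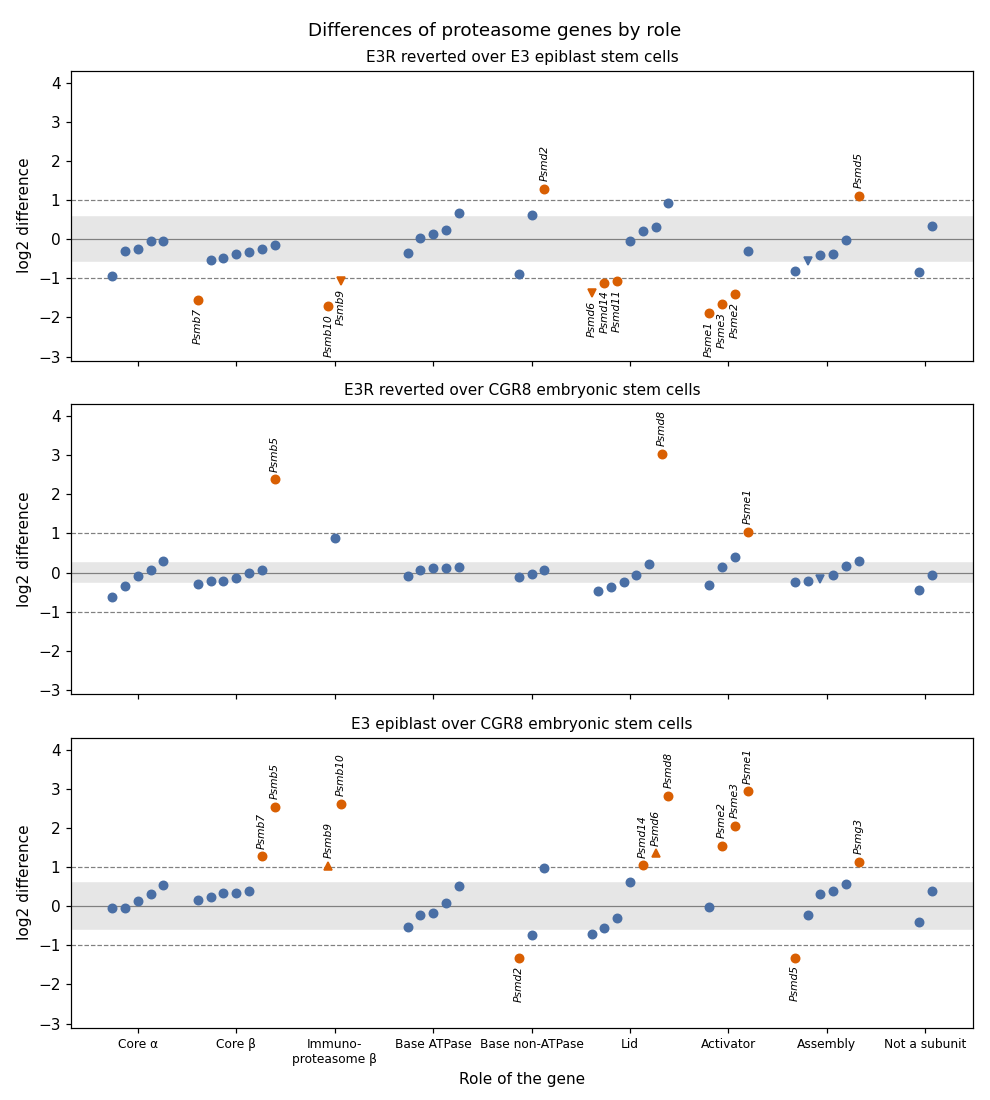
Log2 differences (vertical axis) of the proteasome genes with a value, by role (horizontal axis), in the 3 comparisons; orange points pass 2-fold (dashed lines) and are named, triangles are bounds, and the grey band is the interquartile range of all genes. In the upper panel the constitutive core subunits all lie below 0, and in the middle panel only Psmb5, Psmd8 and Psme1 pass 2-fold.

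In the constitutive core, 1 of the 12 subunits with a value was lower in E3R than in E3, against 12.4% of all genes. The other 11 lay within 2-fold. All 12 (5 α and 7 β subunits) had a difference below 0, under quantile normalization and under the 7 other settings tried, as did 51.3% of all genes under quantile normalization. Settings that change only the detection rule could not alter these 12, which every array detected. Averaging probes could not alter those with 1 probe. Their median of −0.32 lay inside the interquartile range of all genes, and Psma2, Psma5 and Psmb5 differed by no more than their bead error. Among the α subunits, which form the gated outer rings, Psma4 had a log2 signal of 10.65 in E3R, 11.59 in E3 and 11.28 in CGR8, so it was lower in E3R than in E3 by 0.94 ± 0.07 on the log2 scale (1.92-fold). The error here and below is the standard error over the beads of each array, which covers the reading of the array and not the spread between cultures. Psma2, at 12.88, 12.93 and 12.81, and Psma5, at 12.37, 12.41 and 12.46, were nearly level across E3R, E3 and CGR8.

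Of the catalytic β subunits, Psmb7, which carries the trypsin-like site, was the 1 core gene past 2-fold in E3R against E3, by its brightest probe. Its log2 signal was 10.83 in E3R, 12.39 in E3 and 11.12 in CGR8, a difference of −1.57 ± 0.08 between E3R and E3 (2.96-fold lower) and of 1.27 ± 0.08 between E3 and CGR8 (2.41-fold higher). Its other probes gave −0.88 and −0.44 for E3R against E3, and 0.98 and 0.29 for E3 against CGR8, all short of 2-fold, so both calls rest on 1 probe. Psmb6, with the caspase-like site, had 11.53, 12.00 and 11.67 in E3R, E3 and CGR8, and was lower in E3R than in E3 by 0.47 ± 0.08. Psmb4, a structural β subunit, had 12.66, 13.20 and 12.87, lower by 0.54 ± 0.05. Both differences lay inside the interquartile range of all genes in that comparison. The α subunits Psma3 and Psma7 and the β subunits Psmb1, Psmb2 and Psmb3 were lower in E3R than in E3 by 0.25 to 0.39.

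Psmb5, with the chymotrypsin-like site that most proteasome inhibitors used in the clinic bind, had like signals in both populations of the E3 line and a lower one in CGR8. Its log2 signal was 8.94 in E3R and 9.09 in E3, a difference of −0.14 ± 0.15, but 6.56 in CGR8. Before normalization the signals were 497, 621 and 170. E3R and E3 were thus higher than CGR8 by 2.39 ± 0.13 (5.23-fold) and 2.53 ± 0.16 (5.77-fold). The gene has a single probe on the array.

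The immunoproteasome subunits and PA28 were lower in E3R than in E3 in every case that could be measured, 4 of 4, with a median of −1.56. All 4 passed 2-fold, against 12.4% of all genes, and 51.3% of all genes were below 0. Without background correction 2 of the 4 passed it, against 6.08% of all genes. Psmb10, the inducible counterpart of Psmb7, had a log2 signal of 7.66 in E3R, 9.37 in E3 and 6.76 in CGR8. It was lower in E3R than in E3 by 1.72 ± 0.11 (3.29-fold), higher in E3 than in CGR8 by 2.61 ± 0.11 (6.10-fold), and 1.86-fold higher in E3R than in CGR8, short of the limit. Its second probe, at 6.81, 9.59 and 6.18, kept this order and gave differences of −2.78, 3.42 and 0.63. Psmb9, the inducible counterpart of Psmb6, was detected in E3 alone, at 6.13, with undetected signals of 4.99 in E3R and 4.88 in CGR8. Its signal was at least 2.10-fold lower in E3R than in E3, and at least 2.04-fold higher in E3 than in CGR8.

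Psme1, the α chain of PA28, had log2 signals of 8.84 in E3R, 10.72 in E3 and 7.79 in CGR8. The E3R signal lay between the others, lower than E3 by 1.89 ± 0.08 (3.70-fold) and higher than CGR8 by 1.04 ± 0.11 (2.06-fold), while E3 was 7.62-fold higher than CGR8. The second Psme1 probe gave −1.21, 0.99 and 2.19 for E3R against E3, E3R against CGR8 and E3 against CGR8. Psme2, the β chain, had 6.51, 7.91 and 6.38 in E3R, E3 and CGR8. It was lower in E3R than in E3 by 1.40 ± 0.16 (2.64-fold) and differed between E3R and CGR8 by 0.14 ± 0.20, within its bead error.

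The E3 cells alone were grown on fibroblasts, and more fibroblast markers were detected on their array. Of 16 fibroblast markers, 2 were detected in E3R, 7 in E3 and 3 in CGR8, and their summed signals were 796, 1488 and 1198. Thy1, Dcn, Bgn, Fbln2 and Col6a1 were detected in E3 alone, whereas the collagens Col1a1, Col1a2 and Col3a1 were detected on no array. The Col6a1 signal in E3, 4.90, lay below the lowest detected signals of E3R (5.06) and CGR8 (5.10). Sparc, which gave most of the E3R and CGR8 sums, had log2 signals of 9.40 in E3R, 9.66 in E3 and 10.08 in CGR8, and Pdgfra was detected in CGR8 alone. The 4 blood cell markers were likewise detected on none. The part of fibroblast RNA in the immunoproteasome and PA28 result was not tested, and fewer cells of a type and less RNA per cell cannot be told apart in such bulk RNA.

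Other genes of antigen presentation and interferon response were taken from a list of 19, of which 11 had a value. In E3R against E3 none was higher and 2 were lower (18.2%), against 12.7% and 12.4% of all genes, with a median of −0.22. B2m, the light chain of MHC class I, had log2 signals of 7.47 in E3R, 8.70 in E3 and 7.92 in CGR8, 2.34-fold lower in E3R than in E3. H2-T23, a nonclassical class I heavy chain, had 6.90, 8.15 and 6.17, 2.38-fold lower in E3R than in E3. Irf1, a transcription factor that interferon-γ induces, had 9.33 in E3R and 9.38 in E3. Irf9, a part of the interferon-stimulated factor, Tapbp, which loads class I, and Stat2, the partner of Irf9, went the other way, by 0.88, 0.64 and 0.39 in E3R against E3, within 2-fold. The peptide transporter Tap1 was detected in E3 alone, at 5.03. That is below the lowest detected signals of E3R (5.06) and CGR8 (5.10), so Tap1 has no difference. None of the 9 genes with a value passed 2-fold between E3R and CGR8, where 3.35% of all genes did.

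The promoters of Psmb9, Psmb10, Psme1 and Psme2 are shown because these genes moved together and are textbook targets of interferon-γ. Each is the stretch before the gene's start, from RefSeq's GRCm38.p6 table, written 5′ to 3′ on the gene's strand, and capitals mark matches to the motifs named after them. Psmb9 is chr17:34187331-34187580 (minus strand), Psmb10 is chr8:105938393-105938642 (minus), Psme1 is chr14:55578244-55578493 (plus) and Psme2, which has a second listed start, is chr14:55591022-55591271 (minus).
Psmb9: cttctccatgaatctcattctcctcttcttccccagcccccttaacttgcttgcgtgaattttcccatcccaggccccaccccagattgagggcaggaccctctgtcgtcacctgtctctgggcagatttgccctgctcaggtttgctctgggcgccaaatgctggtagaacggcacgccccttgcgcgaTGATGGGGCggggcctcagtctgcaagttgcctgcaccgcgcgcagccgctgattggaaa
Psmb10: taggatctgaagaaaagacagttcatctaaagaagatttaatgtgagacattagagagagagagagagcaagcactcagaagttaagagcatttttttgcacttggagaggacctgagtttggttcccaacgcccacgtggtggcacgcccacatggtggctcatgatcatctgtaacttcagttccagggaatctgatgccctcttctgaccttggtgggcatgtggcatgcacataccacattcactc
Psme1: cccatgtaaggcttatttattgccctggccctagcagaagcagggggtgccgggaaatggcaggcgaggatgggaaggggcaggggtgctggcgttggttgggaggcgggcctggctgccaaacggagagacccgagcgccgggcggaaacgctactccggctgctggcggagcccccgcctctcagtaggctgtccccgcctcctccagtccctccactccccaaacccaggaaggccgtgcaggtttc
Psme2: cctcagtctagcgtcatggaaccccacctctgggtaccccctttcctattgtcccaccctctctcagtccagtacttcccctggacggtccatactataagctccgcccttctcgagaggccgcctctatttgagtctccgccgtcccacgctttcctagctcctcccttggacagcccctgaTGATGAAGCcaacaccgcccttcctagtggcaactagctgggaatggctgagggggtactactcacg

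Searched on both strands over the 250 bases before the start, GAAA followed by any 2 bases and GAAA again, an interferon response motif, was found in 3 of the 39 members with an entry (7.69%: Psmb3, Psmd4 and Psmd9) and in 3.46% of 27025 genes. None of the 5 genes Psmb8, Psmb9, Psmb10, Psme1 and Psme2 held it in this window. TTCNNNGAA, the gamma-activated sequence, was in 2 of 39 (5.13%: Psmb8 and Psmg1) and in 8.13% of all genes. TGANNNNGC, the core of the antioxidant response element that NRF1 and NRF2 bind, was in 16 of 39 (41.0%) and in 38.7% of all genes. It accounts for the capitals in Psmb9, 60 to 52 bases before the start, and in Psme2, 67 to 59 bases before, while the window of the other listed Psme2 start has no match to it. CCAAT, the box bound by NF-Y, was in 15 of 39 members (38.5%) and 37.5% of genes, and is not capitalized. A match is a run of letters and not a site, and the shares of the last 2 motifs lay near those of all genes.

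The other activators behaved differently from each other. Psme3, the nuclear PA28γ, which opens the core without ubiquitin, had log2 signals of 8.87 in E3R, 10.52 in E3 and 8.48 in CGR8. It was lower in E3R than in E3 by 1.66 ± 0.08 (3.15-fold) and higher in E3 than in CGR8 by 2.04 ± 0.09 (4.12-fold), with a single probe. Psme4, or PA200, known for its part in sperm formation and histone turnover, had 10.90, 11.19 and 11.20, lower in E3R than in E3 by 0.30 ± 0.06. Its dimmer second probe, at 6.47, 5.10 and 6.94, gave 1.37 in the opposite direction, so the sign for Psme4 depends on the probe.

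The base ATPases moved little. Of 5 with a value, none passed 2-fold in any comparison. Of all genes, 25.1% did in E3R against E3, 3.35% in E3R against CGR8 and 27.3% in E3 against CGR8. The median in E3R against E3 was 0.14, which became −0.11 when arrays were scaled to a common median. Psmc4 had the largest difference, with 11.91 in E3R, 11.25 in E3 and 11.79 in CGR8, higher in E3R than in E3 by 0.66 ± 0.06 (1.58-fold). Psmc1, Psmc2 and Psmc5 differed by 0.03 to 0.24 there and Psmc3 by −0.37, though a second Psmc5 probe gave −0.27. Among the non-ATPases, Psmd2, the scaffold that docks ubiquitin shuttle factors, had 7.21 in E3R, 5.92 in E3 and 7.24 in CGR8. It was 2.45-fold higher in E3R than in E3 (1.29 ± 0.17) and 2.50-fold lower in E3 than in CGR8, and its second probe gave bounds of at least 1.06 and at least −0.99. The ubiquitin receptor Psmd4 had 12.70, 12.07 and 12.80, the same order with a smaller difference of 0.63 ± 0.08 between E3R and E3. Psmd1, the other large scaffold, went the opposite way, with 6.87, 7.76 and 6.79 and a difference of −0.89 ± 0.14.

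Of the 7 lid subunits, 3 were lower in E3R than in E3 and none was higher, with a median of −0.06, or 0.07 over those detected on both arrays. Of all genes, 12.4% were lower and 12.7% higher. Without background correction none of the 7 passed 2-fold, and with an offset of 50 there was 1 lower. The shares of all genes lower were then 6.08% and 8.0%. Psmd14, the deubiquitinase of the lid, had 7.99 in E3R, 9.10 in E3 and 8.06 in CGR8, 2.16-fold lower in E3R than in E3 (−1.11 ± 0.15). Psmd11, a clamp between core, base and lid, had 6.97, 8.05 and 7.43, 2.11-fold lower (−1.08 ± 0.14). Psmd6 was detected in E3 alone, at 6.45, so its signal was at least 2.61-fold lower in E3R, and its second probe was detected nowhere. Psmd7, the partner of Psmd14, had 11.15, 10.23 and 10.94, higher in E3R than in E3 by 0.93 ± 0.07. The second Psmd7 probe, at 9.83, 10.40 and 9.92, gave −0.57, so its direction was not settled. For Psmd12 the brightest probe was nearly level, at 10.46, 10.52 and 10.82, while a dimmer one gave at least −1.20 in E3R against E3. Psmd13, a scaffold subunit of the lid, had 12.04, 11.74 and 12.29.

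Psmd8, in yeast the last subunit to join the lid, repeated the pattern of Psmb5. Its log2 signal was 9.59 in E3R, 9.38 in E3 and 6.56 in CGR8, from signals of 755, 746 and 170.5 before normalization. E3R and E3 differed by 0.21 ± 0.16, and they were higher than CGR8 by 3.03 ± 0.15 (8.16-fold) and 2.82 ± 0.17 (7.06-fold). Like Psmb5 it has 1 probe, so no second probe bears on the difference.

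The genomic neighbours of the 3 members that differed between E3R and CGR8 were compared, taking the 5 nearest genes with a value on each side. Around Psmd8, on chromosome 7, 5 of 10 neighbours were above 0, none passed 2-fold and the median was 0.01. Around Psmb5, on chromosome 14, all 10 were above 0, with a median of 0.62, and 4 were higher by 2-fold: Mmp14 (1.29), Prmt5 (1.36), 1700123O20Rik (1.49) and Efs (1.33). Around Psme1, on the same chromosome, all 10 were above 0, with a median of 0.68, and Zfhx2 (1.68), Efs (1.33) and Rec8 (1.14) were higher by 2-fold. The windows of Psmb5 and Psme1 share genes, and this stretch of chromosome 14 had been noticed in earlier results of these arrays, so the counts are a description. Leaving out the members on chromosome 14 (Psmb5, Psmc6, Psmd6, Psme1 and Psme2) left Psmd8 as the 1 member of 36 (2.78%) higher in E3R than in CGR8. In E3 against CGR8, 7 of 37 (18.9%) were then higher. The shares of all genes, with chromosome 14 kept in, were 1.81% and 13.9%.

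**Figure D3:**
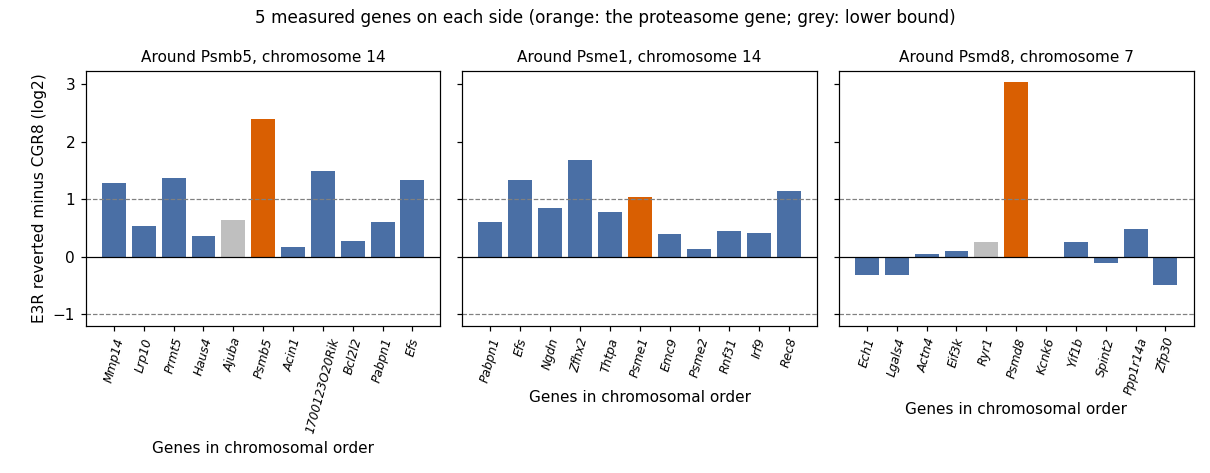
Log2 difference of E3R minus CGR8 (vertical axis) for Psmb5, Psme1 and Psmd8 (orange) and the 5 genes with a value on each side of each, in chromosomal order; dashed lines mark 2-fold and grey bars are bounds. Every neighbour of Psmb5 and Psme1 lies above 0, and 5 of 10 neighbours of Psmd8 do.

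The assembly factors, which help build the base and the α ring and then leave, had a median of −0.39 in E3R against E3. Of the 6, 1 was higher and 5 lay below 0 within 2-fold. Of all genes, 12.7% were higher and 51.3% lay below 0. Psmd5, a chaperone of the base, had 8.49 in E3R, 7.39 in E3 and 8.71 in CGR8. It was 2.14-fold higher in E3R than in E3 (1.10 ± 0.15) and 2.49-fold lower in E3 than in CGR8 (−1.32 ± 0.13). Psmg3, a chaperone of the α ring, had 7.89, 8.72 and 7.58, lower in E3R than in E3 by 0.83 ± 0.14 and 2.19-fold higher in E3 than in CGR8. Psmg1 and Psmg2, the other α ring chaperones here, had 9.51, 9.89 and 9.57, and 9.52, 9.93 and 9.36. Their E3 signals were the highest of the 3 by small margins, although a second Psmg2 probe gave −1.63 in E3R against E3. Psmd10, the base chaperone known as gankyrin, had 8.59, 8.61 and 8.83. Psmd9, another base chaperone, was dim, and its brightest probe was undetected in E3R and at 5.62 in E3 and 5.23 in CGR8. Its second probe was at 5.27 in E3R and 5.52 in E3 and undetected in CGR8. Which array lacked a Psmd9 signal therefore depended on the probe. Of the genes that only share the symbol prefix, Psmc3ip, a cofactor of meiotic recombination, had 9.20, 10.03 and 9.64, and Psme3ip1, a partner of PA28γ, had 8.86, 8.53 and 8.93.

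Probes of the same gene bear on how far a difference can be trusted. Of the 45 genes, 27 had 1 probe and 18 had more, and 15 had at least 2 probes with a value in E3R against E3. The probes of a gene spanned a median of 0.68 on the log2 scale there. They had opposite signs for Psmc5, Psmd7 and Psme4. With bounds counted at their value, they disagreed on the 2-fold call for Psmb7, Psmd11, Psmd12, Psme4 and Psmg2. For Psmd11 the second probe gave a bound of at least −0.39, which does not contradict the call. In E3R against CGR8 the median span was 0.26, 8 of 15 genes had probes of opposite sign, and the probes of Psme1 disagreed on the call. In E3 against CGR8 the span was 0.61, with opposite signs for 5 genes and different calls for 4. Among these 4, Psmd2 was counted on a bound of at least −0.99, which does not contradict its call.

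**Figure D4:**
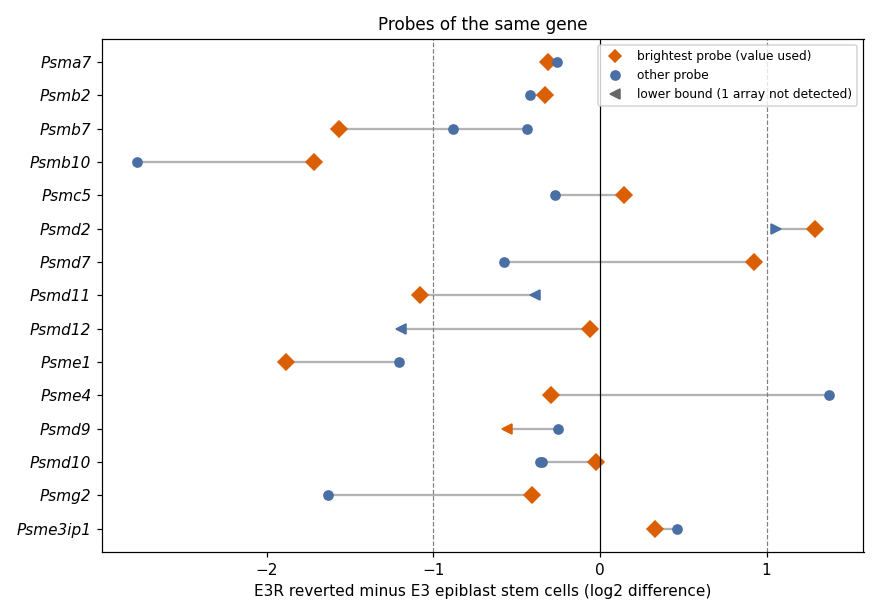
Log2 difference of E3R minus E3 (horizontal axis) for each probe with a value, for the 15 proteasome genes with at least 2 such probes (rows); orange marks the brightest probe, side-pointing triangles are bounds and dashed lines mark 2-fold. Psmb10 and Psme1 keep all probes past 2-fold below 0, and Psmd2 keeps both past it above 0, 1 of them a bound. Psmc5, Psmd7 and Psme4 have probes on both sides of 0.

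Other genes of the pathway were read from lists of known names. Of 29 other proteasome-linked names, 17 were on the array and 15 had a value in E3R against E3, with a median of −0.32. Of these, 1 was higher (6.67%) and 2 were lower (13.3%), against 12.7% and 12.4% of all genes. Zfand2a, a stress-induced proteasome-binding protein, was higher by 1.24, while Rad23b, a ubiquitin shuttle factor, and Nploc4, a cofactor of the p97 segregase, were lower by 1.01 and 1.13. The COP9 signalosome, a relative of the lid that removes NEDD8, had all 9 subunits below 0 in E3R against E3, as were 51.3% of all genes. Their median of −0.40 lay inside the interquartile range of all genes. The catalytic subunit Cops5 alone passed 2-fold there, lower by 1.09 (11.1% of the 9, against 12.4% of all genes). Cops8, a small subunit, had log2 signals of 8.12 in E3R and 8.76 in E3 and was not detected in CGR8, so it was at least 8.10-fold higher in E3R and at least 12.6-fold higher in E3 than in CGR8.

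Of 14 regulators of proteasome genes and their targets, 11 had a value in E3R against E3, 3 were higher (27.3%) and 1 was lower (9.09%), against 12.7% and 12.4% of all genes. Nfe2l1, encoding NRF1, the activator of proteasome genes when the proteasome is inhibited, differed by 0.22. Nfe2l2, encoding its relative NRF2, was higher in E3R by 1.43 (2.69-fold), and Keap1, which targets NRF2 for degradation, by 1.20 (2.30-fold). The NRF2 targets Nqo1 and Gclm went opposite ways, at 1.61 (3.05-fold higher) and −1.16 (2.24-fold lower). The Nqo1 signal in E3, 4.88, lay next to the lowest detected signal of that array (4.87). None of the 11 with a value passed 2-fold between E3R and CGR8, where 3.35% of all genes did.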

How the data were processed

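RNA of 3 mouse cell populations was hybridised to Illumina bead arrays, 1 per population (400 ng RNA, 12 h of in vitro transcription). The deposited bead-level summary gives, per the file headers, an intensity, a bead standard error and a detection p-value for each probe. It was made with BeadStudio, per the submitters' processing notes. A second deposited table of processed intensity, with a lowest value of 8 and a normalization that no header or label records, was used as an alternative.

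The signals were background-corrected from the detection p-values, quantile-normalized and put on the log2 scale with limma 3.58.1 (neqc, offset 16) in R 4.3.3. Summaries used Python 3.11.15. A probe counted as detected at p under 0.01, and a gene was represented by its brightest probe. Differences of 2-fold were counted, and bounds used the lowest detected signal of the array. The bead error was carried to the log2 scale. Of the probes, 23978 carried 1 platform symbol, and 23962 matched the RefSeq gene table. The other 1719 carried no symbol or more than 1 and were left out of the gene-level results. Any member could be named, and of the other lists up to 4 genes with the largest differences; Irf1, Stat2, Tap1, Nfe2l1 and the single markers were named after their values were seen. The normalization was checked on simulated data in which a small set of bright probes was changed, equally many up and down. That check does not bear on dim probes or on arrays where many genes differ. The members and lists were chosen with earlier results of these data known.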

Additional observations from a re-analysis of the deposited data

How the results depend on the processing

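No paired analysis was possible because each group has 1 array. Of the members past 2-fold, 3 of 11 in E3R against E3 stayed past it under all 7 settings (Psmb10, Psme1 and Psme3). In E3R against CGR8, 2 of 3 did (Psmb5 and Psmd8). In E3 against CGR8, 6 of 13 did (Psmb5, Psmb10, Psmd8, Psme1, Psme2 and Psme3). The settings were the authors' processed values, no background correction, common-median scaling and an offset of 50. The others were a detection p under 0.05, detection on both arrays and the mean of a gene's probes. The detection settings cannot change a gene detected on all 3 arrays, as all of these were. Averaging cannot change a gene with 1 probe, which applies to Psmb5, Psmd8, Psme2 and Psme3.
Scaling to a common median moved the member median to −0.59 in E3R against E3, −0.18 in E3R against CGR8 and 0.50 in E3 against CGR8, with all-gene medians of −0.20, −0.15 and 0.07. Averaging a gene's probes moved it to 0.0172 in E3R against CGR8 and to 0.27 in E3 against CGR8. The 2 members higher in E3R than in E3 became 0 without background correction, with an offset of 50 or at a 3-fold threshold, and 1 with scaling or averaged probes. Of all genes, 12.7% were higher, and 7.16%, 8.9%, 5.53%, 9.43% and 10.1% under these settings in that order. The 9 lower there became 4 without background correction and 3 at 3-fold. The share of all genes lower also fell, from 12.4% to 6.08% and 4.3% under these settings. In E3 against CGR8, the 11 higher became 7 without background correction, 5 at 3-fold and 7 without chromosome 14. The share of all genes higher fell from 13.9% to 6.99% without background correction and 5.33% at 3-fold. The 2 lower in E3 than in CGR8 became 1 without background correction, with offset 50 or with averaged probes, and 0 at 3-fold. The share of all genes lower fell from 13.4% to 7.43% without background correction, 9.37% with offset 50 and 6.07% at 3-fold. In E3R against CGR8 the 3 higher became 1 without chromosome 14, a setting chosen after seeing the data. This stands beside 1.81% of all genes, with chromosome 14 kept in. Without background correction the dim Psmb9 and Psmd6 gave −0.45 and −0.62 in E3R against E3. The cause was not tested. No difference of a named member past 2-fold changed sign under these settings, some of which could not alter a gene detected on every array. The 3 arrays leave all statements without replicate error, and probes near background give bounds only.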
